A study of Mus musculus with 60 samples.

Results

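A set of 10 serotonin receptor genes was followed through mouse prefrontal cortex: Htr1a, Htr1b, Htr1f, Htr2a, Htr2c, Htr3a, Htr4, Htr5a, Htr6 and Htr7. They are the 10 of 18088 genes in the deposited expression table whose Ensembl identifiers carry these symbols, and no measured value entered the choice. The table covers 60 RNA-seq libraries from C57BL/6J mice taken at postnatal day 25, each the prefrontal cortex of animals labelled Heterozygous for Trip12 (HT), a ubiquitin ligase gene, or wild type (WT). Fluoxetine, which blocks the serotonin transporter, lithium, a mood stabiliser, or vehicle reached the pups through the dam's milk from day 3 to day 24, so every group, vehicle included, had 3 weeks of dosing through a nursing dam. The 12 groups are HT fluoxetine, HT lithium, HT vehicle, WT fluoxetine, WT lithium and WT vehicle, each in males and in females, with 5 libraries a group. The Trip12 allele, the doses and the litters are not given in the labels, and nothing in them says that the 5 libraries of a group came from separate litters. The p-values below set each difference against the spread between these libraries, taken as independent. If libraries of a group share a litter, the p-values may be too small.

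Serotonin reaches the prefrontal cortex along axons of the raphe nuclei in the brainstem, and what it does there depends on which receptor a cell carries. The Htr1 and Htr5 families couple to Gi/o proteins, which lower cyclic AMP and open potassium channels of the GIRK type, so that a neuron fires less. The Htr2 family couples to Gq/11 and phospholipase C, Htr4, Htr6 and Htr7 couple to Gs and raise cyclic AMP, and Htr3a encodes a subunit of a cation channel that serotonin opens directly.

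The DNA just upstream of the 5 members that passed a test in at least one comparison below (Htr2a, Htr1a, Htr5a, Htr7 and Htr2c) is given first. A link between these sequences and the differences was not tested. Of these genes, all protein-coding, Htr2a (ENSMUSG00000034997) lies at chr14:74640840-74709494 on GRCm38, Htr1a (ENSMUSG00000021721) at chr13:105443639-105448122, Htr5a (ENSMUSG00000039106) at chr5:27842149-27855088, Htr7 (ENSMUSG00000024798) at chr19:35958734-36057507 and Htr2c (ENSMUSG00000041380) at chrX:146962513-147197277. The sequences are RefSeq's on GRCm38.p6, written 5′ to 3′ on the strand of the gene, and hold only bases before both the RefSeq start and the start in the gene annotation. Capitals mark a match to one of the motifs searched. They are chr14:74640624-74640839 (plus strand) for Htr2a, chr13:105443443-105443638 (plus) for Htr1a, chr5:27841697-27841946 (plus) for Htr5a, chr19:36057508-36057610 (minus) for Htr7 and chrX:146962263-146962512 (plus) for Htr2c.
Htr2a: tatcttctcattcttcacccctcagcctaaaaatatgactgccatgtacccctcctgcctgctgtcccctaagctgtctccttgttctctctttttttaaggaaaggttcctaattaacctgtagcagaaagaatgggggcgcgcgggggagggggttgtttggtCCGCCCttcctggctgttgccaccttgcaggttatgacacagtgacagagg
Htr1a: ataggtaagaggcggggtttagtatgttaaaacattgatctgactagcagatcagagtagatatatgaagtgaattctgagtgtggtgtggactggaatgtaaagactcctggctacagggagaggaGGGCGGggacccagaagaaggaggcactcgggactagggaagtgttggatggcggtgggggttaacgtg
Htr5a: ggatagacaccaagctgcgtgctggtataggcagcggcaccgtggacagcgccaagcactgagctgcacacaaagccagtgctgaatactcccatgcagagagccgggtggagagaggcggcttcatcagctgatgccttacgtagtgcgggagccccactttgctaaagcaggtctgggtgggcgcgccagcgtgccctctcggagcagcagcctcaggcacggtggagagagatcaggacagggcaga
Htr7: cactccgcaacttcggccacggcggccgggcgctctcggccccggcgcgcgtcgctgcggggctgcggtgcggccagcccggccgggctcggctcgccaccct
Htr2c: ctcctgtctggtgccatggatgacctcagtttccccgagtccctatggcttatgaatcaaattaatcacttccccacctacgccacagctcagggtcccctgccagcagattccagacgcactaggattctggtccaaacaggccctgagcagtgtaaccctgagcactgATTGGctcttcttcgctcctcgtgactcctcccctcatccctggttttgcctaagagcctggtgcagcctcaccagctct

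The motifs searched on both strands were the TATA box TATAAA, the GC box GGGCGG, the CCAAT box CCAAT, the cyclic AMP response element TGACGTCA and the Egr site GCGGGGGCG. An Egr site followed by G also holds the letters of the GC box. The Htr2a stretch holds a GC box read on the opposite strand, the Htr1a stretch a GC box on the strand of the gene, and the Htr2c stretch a CCAAT box on the opposite strand. The Htr5a and Htr7 stretches hold none of the 5 in these windows. Among 32851 RefSeq mouse promoters of 300 bases, a GC box is found in 35.7% and a CCAAT box in 37.4%, so these matches are common. The Htr7 promoter stands out by its CG dinucleotides, with 46 in its 300-base window, more than 98.4% of those promoters. The windows of Htr2a, Htr1a, Htr5a and Htr2c have 6, 7, 14 and 5. Of the Htr7 window only the 103 bases printed, with 19 CG dinucleotides, lie before the annotated gene, and the rest lies inside it.

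Before the values, 2 properties of the libraries matter. Total reads ran from 32.65 to 36.62 M in the fluoxetine libraries, 25.14 to 35.86 M in the lithium libraries and 26.59 to 30.99 M in the vehicle libraries. Fluoxetine and vehicle thus do not overlap in depth, and drug and depth cannot be told apart. The same holds for lithium and vehicle in females. There lithium had 32.09 to 35.18 M in HT and 33.92 to 35.86 M in WT. Vehicle females had 26.59 to 30.99 M in HT and 28.1 to 29.3 M in WT. In WT males fluoxetine (32.65 to 36.52 M) and lithium (25.14 to 32.37 M) do not overlap either. The summed level of 15 markers of striatal medium spiny neurons was 10304, 20026, 26541, 28694 and 29635 normalized counts in the 5 HT vehicle males, against 10892 to 15005 in the WT vehicle males, and the medians of the other 10 groups lay between 11534 and 14097, with 2 fluoxetine libraries above 20026. Markers of upper layer projection neurons were present in every library (summed level 20408 to 27788), and 8 choroid plexus markers summed to 285 to 637. Markers of the olfactory bulb summed to 925 to 13894, a wide spread within most groups. Trip12 itself averaged 5840 to 6413 normalized counts in the 6 HT groups and 5535 to 6175 in the 6 WT groups, and the HT mean was above the WT mean in every treatment and sex. Its highest value (6953) was in HT vehicle male replicate 1 and its lowest (4394) in WT fluoxetine male replicate 2, and results were also computed without these 2 libraries.

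The receptors differed widely in how much RNA was present. In normalized counts, the mean over 60 libraries was 1642 ± 166 (SD) for Htr2a, 1164 ± 278 for Htr2c, 702 ± 59.6 for Htr5a, 569 ± 74.3 for Htr1a, 320 ± 51.3 for Htr1b, 191 ± 18.2 for Htr3a, 183 ± 25.3 for Htr7 and 110 ± 22.7 for Htr6. Those 8 averaged at least 100 and are called well measured. Htr1f (89.4 ± 18.0) and Htr4 (21.99 ± 6.84) are low, though both were tested. A library held 1283 to 2471 reads of Htr2a but 13 to 45 reads of Htr4, so counting error alone is 2.38% of the median level for Htr2a and 20.4% for Htr4.

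Levels can be set against each other only per length. The length used was that of all annotated exons of a gene, overlapping bases counted once, not that of the transcripts expressed. Per kilobase, Htr2a, the Gq/11-coupled receptor best known from the dendrites of deep pyramidal neurons and as the target of classical psychedelics, was highest at 293 ± 29.6 normalized counts, above Htr5a in 60 of 60 libraries. Htr5a (131 ± 11.1), Htr1a (127 ± 16.6) and Htr2c (125 ± 29.8) followed and did not separate: Htr5a exceeded Htr1a in 35 of 60 libraries, and Htr1a exceeded Htr2c in 32. Htr3a stood at 91.9 ± 8.76, Htr1b at 67.8 ± 10.9, Htr7 at 54.0 ± 7.44, Htr6 at 46.9 ± 9.69 and Htr1f at 34.7 ± 6.995 per kilobase, and each of these neighbours overlapped in range. Htr4 was lowest at 4.48 ± 1.39 and lay below Htr1f in every library.

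**Figure D1:**
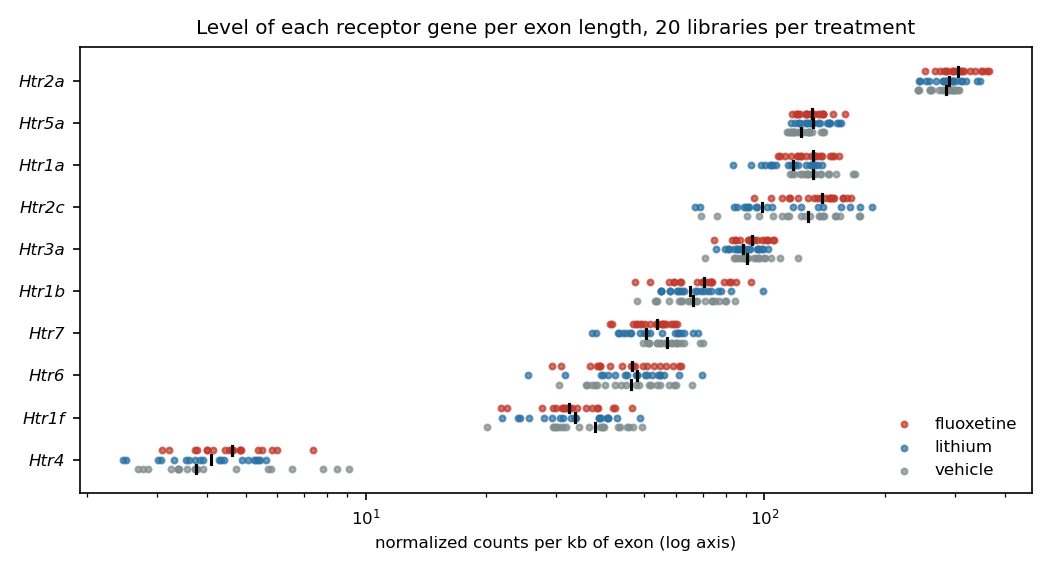
Normalized counts per kilobase of exon (log axis) for the 10 receptor genes in each of 60 libraries, one point a library, coloured by treatment, with black ticks at the median of each treatment. Htr2a sits alone at the top (mean 293) and Htr4 alone at the bottom (mean 4.48), while Htr5a, Htr1a and Htr2c overlap.

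The members also differed in how tightly they were held within a group. The residual SD on the log2 scale was 0.11 for Htr5a and 0.12 for Htr2a, with 24.1% and 27.6% of tested genes tighter. It was 0.35 for Htr2c, and 78.1% of genes were tighter. Htr2c, a receptor whose RNA is edited by ADAR enzymes, ranged from 624.7 to 1732 normalized counts over all libraries. Its within-group deviations ran against the olfactory bulb marker score (Pearson r = -0.57 over 60 libraries), a description of libraries that share their dissections. The part of these markers in the spread of Htr2c within groups was not tested.

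The main question for these genes is whether 3 weeks of fluoxetine from day 3 shifted the receptors for the transmitter whose uptake it blocks. Averaged over genotype and sex, Htr2a was the one receptor that rose, by 10.7%, and the other 9 did not pass the test. The 20 fluoxetine libraries ranged from 1420 to 2046 normalized counts of Htr2a around a mean of 1734 ± 175, against 1360 to 1720 around 1564 ± 121 in the 20 vehicle libraries (SD).

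In HT males, Htr2a stood at 1602, 1654, 1708, 1741 and 2021 normalized counts with fluoxetine and at 1360, 1461, 1533, 1680 and 1680 with vehicle. In HT females the values were 1420, 1579, 1608, 1679 and 1756 with fluoxetine and 1362, 1368, 1460, 1479 and 1720 with vehicle. The groups overlapped in both sexes, and 9 of the 10 HT fluoxetine libraries lay above the mean of their vehicle group. In WT males Htr2a stood at 1544, 1667, 1769, 1956 and 1978 with fluoxetine, against 1565, 1577, 1627, 1637 and 1669 with vehicle. In WT females it stood at 1505, 1723, 1841, 1891 and 2046 with fluoxetine, against 1456, 1618, 1652, 1661 and 1714 with vehicle. Here 4 of 5 fluoxetine libraries in each sex exceeded the vehicle mean, and the lowest fluoxetine library fell inside or below the vehicle range.

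On the log2(normalized count + 1) scale the difference was 0.15 ± 0.04 (SE), a rise of 10.7% (95% interval 5.08% to 16.6%), with a Benjamini-Hochberg adjusted p of 0.0053 from limma's moderated test over 17804 genes. It was seen in 17 of 20 fluoxetine libraries. The 4 arms gave 0.18 in HT males, 0.12 in HT females, 0.14 in WT males and 0.15 in WT females. No single arm passed the test. The difference between the HT and WT responses was 0.01 (95% interval -0.14 to 0.16; limma adjusted p = 0.9997), and that between males and females was 0.02. The lithium females, whose depth (32.09 to 35.86 M reads) lay near that of the fluoxetine libraries, averaged 1657 ± 135 normalized counts of Htr2a against 1549 ± 139 in vehicle females (0.10, limma adjusted p = 0.29). In bulk tissue, fewer cells of a type and less RNA per cell cannot be told apart, and this holds for every difference here. With log2 of total reads added to the fit, the Htr2a difference was 0.17 with an adjusted p of 0.15.

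The 1 member called of 10 is to be read against the table as a whole, where limma called 14.5% of all genes in this comparison (6.71% higher and 7.78% lower). The median difference of the 10 members was 0.03, against -0.00 over all genes, and 6 of 10 were positive. Htr7, a Gs-coupled receptor, averaged 178 ± 19.1 normalized counts with fluoxetine and 196 ± 18.8 with vehicle, a difference of -0.14 ± 0.06 that did not pass (limma adjusted p = 0.085), although 17 of 20 fluoxetine libraries were on the low side. Htr5a, a Gi/o-coupled receptor, averaged 710 ± 56.2 with fluoxetine and 671 ± 45.6 with vehicle (0.08 ± 0.04, adjusted p = 0.13).

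Htr1a, the inhibitory receptor that also serves raphe neurons as an autoreceptor, averaged 584 ± 60.1 normalized counts with fluoxetine and 604 ± 65.2 with vehicle (-0.05, limma adjusted p = 0.56). The closest to no difference was Htr3a, with 194 ± 16.4 in fluoxetine libraries and 194 ± 22.2 in vehicle libraries, and its 95% interval ran from -0.09 to 0.09. Htr2c is far less settled: it averaged 1266 ± 187 with fluoxetine and 1173 ± 271 with vehicle, with an interval of -0.08 to 0.34. Htr1b, Htr1f, Htr4 and Htr6 differed by 0.06, -0.13, 0.08 and -0.02, with adjusted p-values of 0.40 to 0.92.

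**Figure D2:**
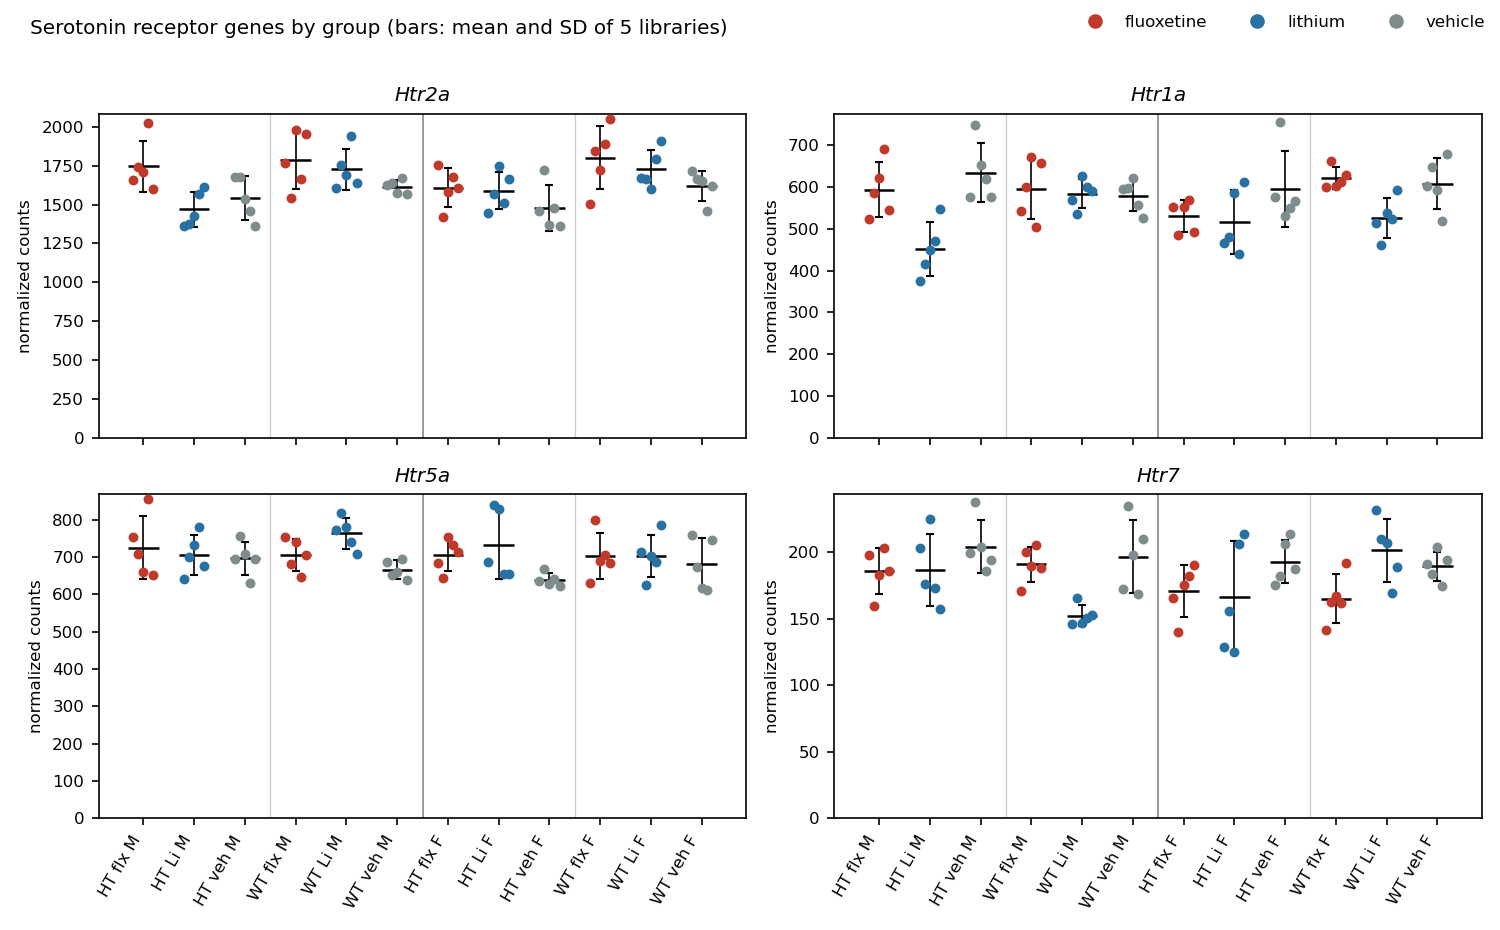
Normalized counts of Htr2a, Htr1a, Htr5a and Htr7 in the 12 groups, one point a library (n = 5) with the group mean and SD. Htr2a is higher with fluoxetine than with vehicle in all 4 arms, and Htr1a is lowest in the HT lithium males (mean 451).

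Within one genotype the fluoxetine test has fewer libraries and called no receptor. In HT mice limma called 0 of 10 members, against 10.2% of all genes, with 1 member at an unadjusted p under 0.05 (24.5% of all genes), and edgeR called 0 and DESeq2 1. Htr2a averaged 1677 ± 155 normalized counts in HT fluoxetine libraries and 1510 ± 139 in HT vehicle libraries (0.15 ± 0.05, limma adjusted p = 0.055). In WT mice limma called 0 of 10, against 0.208% of all genes, with 2 members at an unadjusted p under 0.05 (10.5% of all genes), and edgeR and DESeq2 called 0. The number of genes called in WT was 37, and 14 to 469 with single libraries left out, the highest without WT fluoxetine male replicate 2. Htr2a averaged 1792 ± 183 in WT fluoxetine libraries and 1618 ± 71.6 in WT vehicle libraries (0.14 ± 0.05, adjusted p = 0.28).

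One arm separated completely. In WT females Htr2c stood at 1353, 1372, 1468, 1471 and 1506 normalized counts with fluoxetine, against 646, 708, 1154, 1279 and 1314 with vehicle, so that every fluoxetine library exceeded every vehicle library. The vehicle group itself is spread over a wide range, and the difference of 0.55 ± 0.21 did not pass (limma adjusted p = 0.35), in an arm where limma called 0.00% of all genes. The two-sided exact permutation test of 5 against 5 gave p = 0.0079, the smallest it can give, and 0.32 after adjustment over the 40 such tests of members and arms. It was the 1 of these 40 without overlap, and the share of all genes without overlap was not computed. In WT males, Htr2c stood at 876 to 1537 with fluoxetine and 906 to 1213 with vehicle. The difference between the sexes in the Htr2c response was -0.40 for males minus females (limma adjusted p = 0.45).

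**Figure D3:**
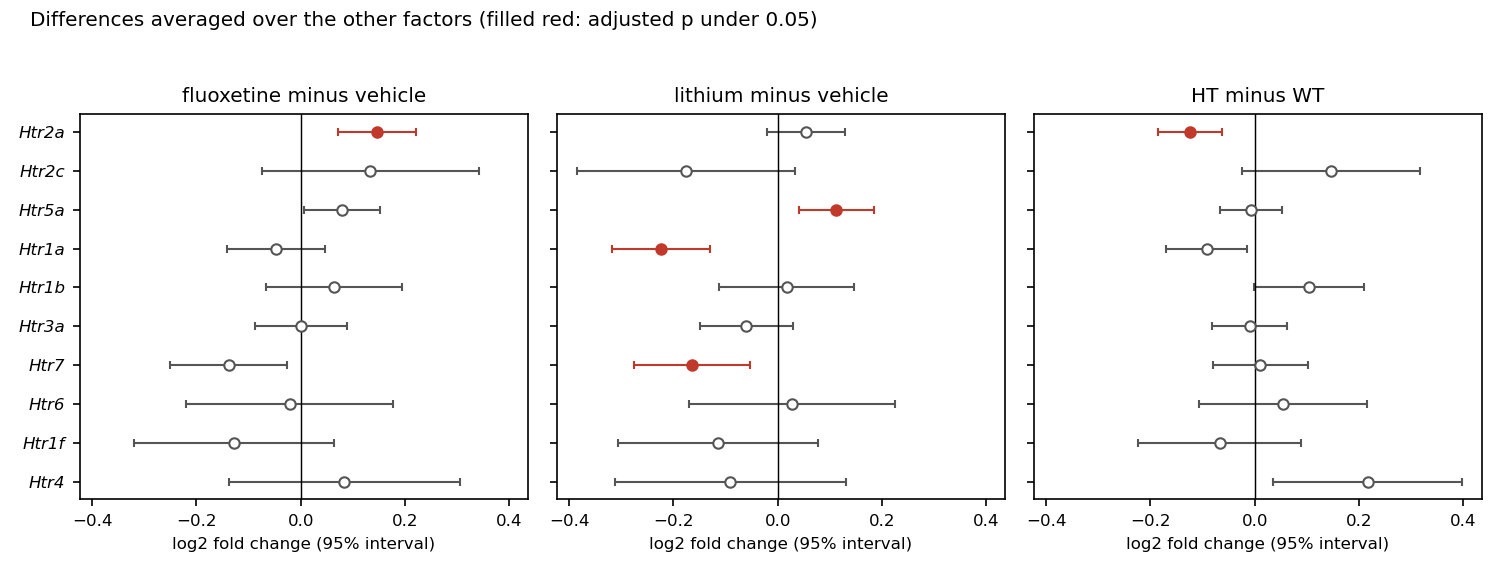
Log2 differences of the 10 receptor genes with 95% intervals for fluoxetine minus vehicle, lithium minus vehicle and HT minus WT, averaged over the other factors. Htr2a lies above 0 for fluoxetine (0.15) and below 0 for HT (-0.12), and Htr1a lies below 0 for lithium (-0.22).

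Lithium was set against the same vehicle libraries, so its differences and those of fluoxetine share their controls. Htr1a fell, Htr7 fell and Htr5a rose with lithium, averaged over genotype and sex, while the other 7 members did not pass. Limma called 3 of 10 members, 1 higher and 2 lower, against 22.6% of all genes (11.4% higher and 11.2% lower). Htr2a, the member called with fluoxetine, averaged 1627 ± 157 with lithium and 1564 ± 121 with vehicle, a difference of 0.05 (adjusted p = 0.31).

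The Htr1a values differ by arm. In HT males they stood at 374, 416, 450, 470 and 546 normalized counts with lithium and at 575, 575, 619, 652 and 746 with vehicle, and the 2 groups do not overlap. In HT females the values were 439, 465, 480, 584 and 610 with lithium and 531, 549, 567, 576 and 755 with vehicle. Most lithium libraries lie lower, but the ranges overlap. In WT males Htr1a stood at 535, 569, 590, 600 and 624.6 with lithium and at 526.2, 557, 594, 596 and 620 with vehicle. In WT females it stood at 462, 513, 524, 536 and 593 with lithium, against 518, 593, 602, 646 and 677 with vehicle. The WT males thus held nearly the same range with and without lithium, whereas the WT females were mostly lower.

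Averaged over the 4 arms, Htr1a differed by -0.22 ± 0.05 (95% interval -0.32 to -0.13), a level that fell by 14.4%, with a limma adjusted p of 3.7e-04, in 16 of 20 lithium libraries. In HT mice alone it was the one member called, at -0.35 ± 0.07 (adjusted p = 2.1e-04, 9 of 10 libraries), where limma called 14.6% of all genes. With scores of striatal, olfactory bulb and choroid plexus markers in the fit, the Htr1a difference in HT mice was -0.32 (adjusted p = 0.0020). In WT mice limma called 0 of 10 members, against 4.57% of all genes, with 1 member at an unadjusted p under 0.05 (18.6% of all genes), and edgeR and DESeq2 called 0. Htr1a there differed by -0.10 (adjusted p = 0.46). The difference between genotypes was itself -0.25 ± 0.09 for HT minus WT, with an unadjusted limma p of 0.0096 and an adjusted p of 0.85, so it did not pass. Over 60 libraries the deviations of Htr1a within groups ran against the olfactory bulb (r = -0.55) and thalamus (r = -0.60) marker scores. They ran with the striatal marker score (r = 0.38). Within HT males the Htr1a difference was -0.49 ± 0.09, a level that fell by 29.0%. It was the one member called in that arm, where limma called 13.2% of all genes. The HT vehicle males are the group with high striatal markers, and the part of those cells in the Htr1a difference of this arm was not tested.

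Htr5a moved less but in most libraries. It stood at 709, 740, 774, 780 and 818 normalized counts in WT lithium males, against 638, 651, 660, 688 and 696 in WT vehicle males, and these groups do not overlap. In HT females it stood at 656, 656, 687, 828 and 839 with lithium, against 623, 627, 636, 642 and 669 with vehicle. The other arms overlapped more widely, with 641 to 780 in HT lithium males against 631 to 756 in HT vehicle males, and 626 to 785 in WT lithium females against 611 to 758 in WT vehicle females. Over all arms the difference was 0.11 ± 0.04, or 8.13% higher (limma adjusted p = 0.019), in 17 of 20 lithium libraries. The deviations of Htr5a within groups ran with the layer 5 projection neuron markers (r = 0.65 over 60 libraries) and against the astrocyte markers (r = -0.63), values that share library and depth. The part of these cells in the Htr5a difference was not tested.

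Htr7 was also lower in most, but not all, arms. In WT males it stood at 146, 147, 151, 152 and 165 normalized counts with lithium and at 169, 172, 198, 210 and 235 with vehicle, with no overlap, in an arm where limma called 1.75% of all genes but not Htr7 (-0.36, adjusted p = 0.073). In HT males it stood at 157, 173, 176, 203 and 225 with lithium, against 185, 194, 200, 204 and 238 with vehicle. Females showed no common direction: 125, 129, 156, 206 and 214 in HT lithium females against 175, 182, 187, 206 and 214 in HT vehicle females, and 169, 188, 207, 210 and 232 in WT lithium females against 175, 183, 191, 194 and 204 in WT vehicle females. Over all arms Htr7 differed by -0.16 ± 0.06, a level that fell by 10.8% (limma adjusted p = 0.026), in 14 of 20 lithium libraries. The difference between the sexes, males minus females, was -0.16 (limma adjusted p = 0.63). The call over all arms is narrow, since it was lost without HT lithium female replicate 1 (adjusted p = 0.0513) and without replicate 3 of that group (adjusted p = 0.0520).

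By sex, limma called 2 members in males, where 15.8% of all genes were called. Htr1a averaged 517 ± 84.9 normalized counts in lithium males and 606 ± 60.6 in vehicle males (-0.24, adjusted p = 0.010), and Htr7 averaged 169 ± 26.0 in lithium males and 200 ± 22.9 in vehicle males (-0.25, adjusted p = 0.025). In females 1 member was called, against 6.27% of all genes: Htr1a averaged 521 ± 60.1 in lithium females and 601 ± 72.8 in vehicle females (-0.21, adjusted p = 0.049). With each of the 20 female libraries left out in turn, the Htr1a difference was -0.24 to -0.16 (adjusted p of 0.019 to 0.13), and it was called in 6 of the 20 fits and lost in 14. Without HT vehicle female replicate 2 it was -0.16 (adjusted p = 0.13). In males Htr1a was called in 20 of 20 such fits and Htr7 in 17, being lost without HT lithium male replicate 5 (adjusted p = 0.060), HT vehicle male replicate 2 (0.057) or WT vehicle male replicate 2 (0.062). The test of males against females called 0 members and 0.0112% of all genes. The members that did not pass over all arms ranged from Htr2c at -0.18 (adjusted p = 0.23) to Htr2a at 0.05.

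With log2 of total reads in the fit, Htr1a was still called with lithium, at -0.26 (adjusted p = 0.0023). Htr5a and Htr7 were not called in that fit, though their differences were about as large, at 0.11 (adjusted p = 0.12) and -0.18 (adjusted p = 0.088). With the striatal, olfactory bulb and choroid plexus marker scores in the fit, Htr1a differed by -0.21 (adjusted p = 0.0020) and Htr5a by 0.09 (adjusted p = 0.11). In that fit Htr7 differed by -0.10 (adjusted p = 0.27), against -0.16 without the scores, and Htr3a by -0.14 (adjusted p = 0.047), against -0.06 without them. Of the 15 striatal markers 10 fell with lithium, Drd1 by 0.55 and Adora2a by 0.91 on the log2 scale, and of 9 oligodendrocyte markers 8 fell, against 11.2% of all genes called lower. Drd1 averaged 171 ± 33.5 normalized counts in HT lithium males and 503 ± 210 in HT vehicle males, and 158 ± 29.0 in HT lithium females and 235 ± 118 in HT vehicle females. In WT mice it averaged 211 ± 43.5 in lithium males and 242 ± 75.8 in vehicle males, and 179 ± 34.7 in lithium females and 209 ± 75.8 in vehicle females (SD, n = 5). Their part in the receptor differences was not tested further.

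Set directly against lithium, without vehicle libraries, fluoxetine gave higher Htr1a and higher Htr2c. Htr1a averaged 584 ± 60.1 normalized counts with fluoxetine and 519 ± 71.6 with lithium (0.18 ± 0.05, limma adjusted p = 0.0028, 16 of 20 libraries). For Htr2c, the fluoxetine libraries of WT females given above (1353 to 1506) stand against 851, 888, 893, 946 and 1098 in WT lithium females. In HT females Htr2c stood at 1131, 1239, 1263, 1282 and 1321 with fluoxetine and at 783, 796, 840, 1274 and 1732 with lithium. The WT females do not overlap, and in HT females 3 of the 5 lithium libraries lie below all the fluoxetine ones while the highest lies above them.

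In males the 2 drugs overlapped throughout. HT males had 1072, 1078, 1199, 1388 and 1392 normalized counts of Htr2c with fluoxetine and 624.7, 848, 1310, 1532 and 1622 with lithium. WT males had 876, 968, 1033, 1361 and 1537 with fluoxetine and 641, 828, 973, 1152 and 1450 with lithium. Over all arms the difference was 0.31 ± 0.10, or 24.0% higher with fluoxetine (limma adjusted p = 0.017), in 16 of 20 libraries. Limma called these 2 of 10 members, both higher, against 32.9% of all genes (16% higher). With total reads in the fit the Htr2c difference was 0.29 and was not called (adjusted p = 0.085). With the striatal, olfactory bulb and choroid plexus scores in the fit it was 0.25 and was called (adjusted p = 0.025). Htr2a differed by 0.09 between the drugs (adjusted p = 0.052).

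Between the genotypes 1 receptor was called. Htr2a was lower in HT libraries, with 1572 ± 155 normalized counts (n = 30), against 1712 ± 148 in WT libraries (n = 30). The difference was -0.12 ± 0.03, a level that fell by 8.26%, with a limma adjusted p of 0.010, and 25 of 30 HT libraries were on the low side. Limma called 5.06% of all genes here, and 2.53% of all genes were called lower. Within fluoxetine, lithium and vehicle libraries the Htr2a difference was -0.09, -0.18 and -0.10, with adjusted p-values of 0.50, 0.11 and 0.58. Htr2a was therefore higher with fluoxetine than with vehicle and lower in HT than in WT, and the HT fluoxetine mean of 1677 lay between the WT vehicle mean of 1618 and the WT fluoxetine mean of 1792.

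The other members did not pass between genotypes. Htr1a differed by -0.09 (limma adjusted p = 0.15) and Htr4 by 0.22 (adjusted p = 0.15). Htr4, a Gs-coupled receptor abundant in the striatum, stood at 18.3, 32.0, 38.5, 41.7 and 44.5 normalized counts in HT vehicle males, against 13.96, 16.7, 18.3, 18.5 and 28.0 in WT vehicle males (0.82 ± 0.22, adjusted p = 0.17). Htr1b, a Gi/o-coupled receptor of axon terminals, stood at 349, 349, 375, 378 and 399 in HT vehicle males, against 254, 272, 293, 319 and 336 in WT vehicle males, with no overlap (0.33, adjusted p = 0.39). Htr2c did not overlap there either, at 1282, 1310, 1402, 1444 and 1612 in HT vehicle males against 906, 1030, 1061, 1179 and 1213 in WT vehicle males (0.39, adjusted p = 0.58), and limma called 0.0112% of all genes in vehicle males. These HT males are the group with high striatal markers. The HT vehicle male with a low marker sum (10304), replicate 1, also has the highest Trip12. Its Htr4 (18.3) was the lowest of its group, and its Htr1b (349) was above every WT vehicle male. This is 1 library, and the part of striatal cells in the differences between vehicle males was not tested. Over 60 libraries the deviations of the striatal marker score within groups ran with those of Htr4 (r = 0.66) and Htr1b (r = 0.51), which describes these libraries only. The Htr1b exons overlap those of D430036J16Rik on the opposite strand, and how strand was used in the counting is not given in the sources used here.

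Genotypes also separated without overlap in fluoxetine females, where limma called 0.00% of all genes. Htr1a stood at 485, 491, 552, 552 and 569 normalized counts in HT fluoxetine females and at 598, 601, 611, 627 and 662 in WT fluoxetine females (-0.23). Htr2c stood at 1131 to 1321 in HT fluoxetine females and 1353 to 1506 in WT fluoxetine females (-0.20). Every HT library lay below every WT library for both genes, and limma called neither. These 2 gaps and the 2 in vehicle males were the 4 without overlap among 60 tests of members and arms between genotypes. Each had a two-sided exact permutation p of 0.0079, the smallest that 5 against 5 can give, and 0.12 after adjustment over the 60. The share of all genes without overlap in these arms was not computed, so these gaps cannot be called particular to the receptors. In lithium males Htr1a stood at 374 to 546 in HT and 535 to 624.6 in WT (-0.38, limma adjusted p = 0.061), with overlap. Htr7 differed by 0.28 in lithium males (adjusted p = 0.24) and by -0.30 in lithium females (adjusted p = 0.40).

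**Figure D4:**
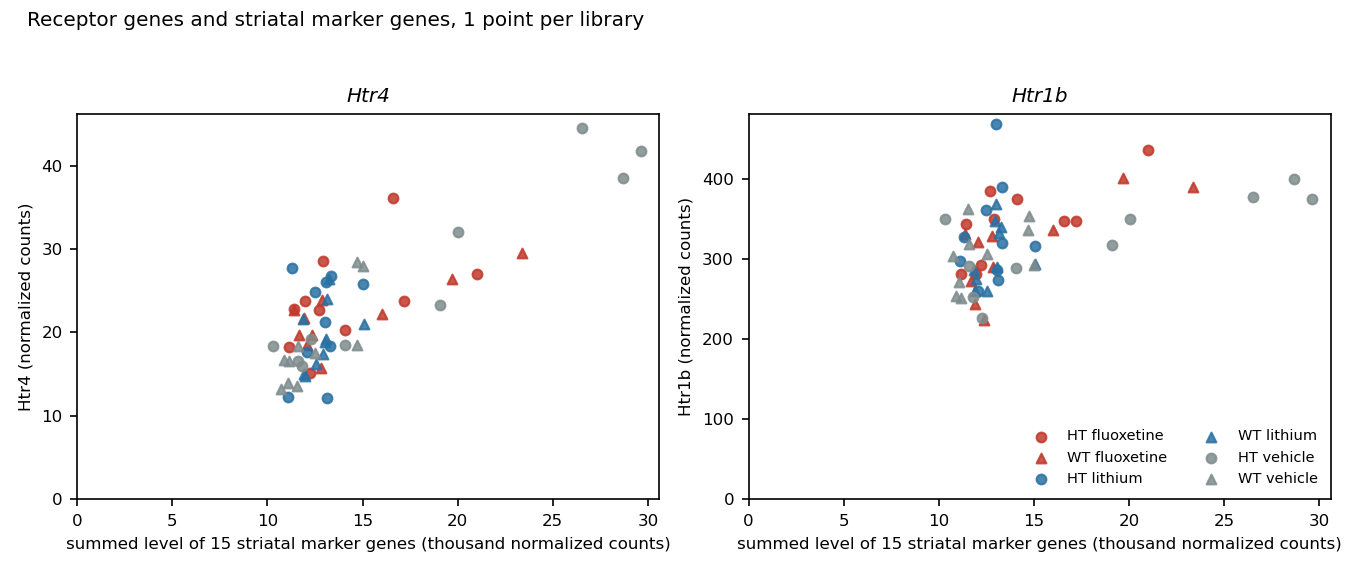
Htr4 and Htr1b (normalized counts) against the summed level of 15 striatal markers (normalized counts) in 60 libraries, coloured by treatment, with circles for HT and triangles for WT. The HT vehicle males reach 29635 on the marker axis and 44.5 for Htr4, while 1 of them (10304) lies among the other groups.

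Between the sexes limma called 0 of 10 members, against 1.19% of all genes, with 1 member at an unadjusted p under 0.05 (19.7% of all genes), and edgeR and DESeq2 called 0. That member was Htr4, at 24.6 ± 7.62 normalized counts in males and 19.4 ± 4.84 in females (0.31 ± 0.09, limma adjusted p = 0.063, 23 of 30 male libraries). The males include the HT vehicle males, with their high striatal markers and an Htr4 mean of 35.0. With the striatal, olfactory bulb and choroid plexus scores in the fit, the Htr4 difference was 0.19 (adjusted p = 0.31). Since Htr4 is itself abundant in the striatum, that fit cannot tell striatal tissue and a difference in Htr4 apart. The part of each was not tested. The number of genes called between the sexes was 211, and 75 to 1492 with single libraries left out, the highest without HT vehicle male replicate 1. Htr2c, the one member on the X chromosome, averaged higher in males with vehicle (1244 ± 212 against 1102 ± 314 in females) and lower in males with fluoxetine (1190 ± 218 against 1341 ± 118 in females). Neither its sex difference over all treatments (0.04, limma adjusted p = 0.84) nor that in its fluoxetine response (-0.40, adjusted p = 0.45) passed.

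**Figure D5:**
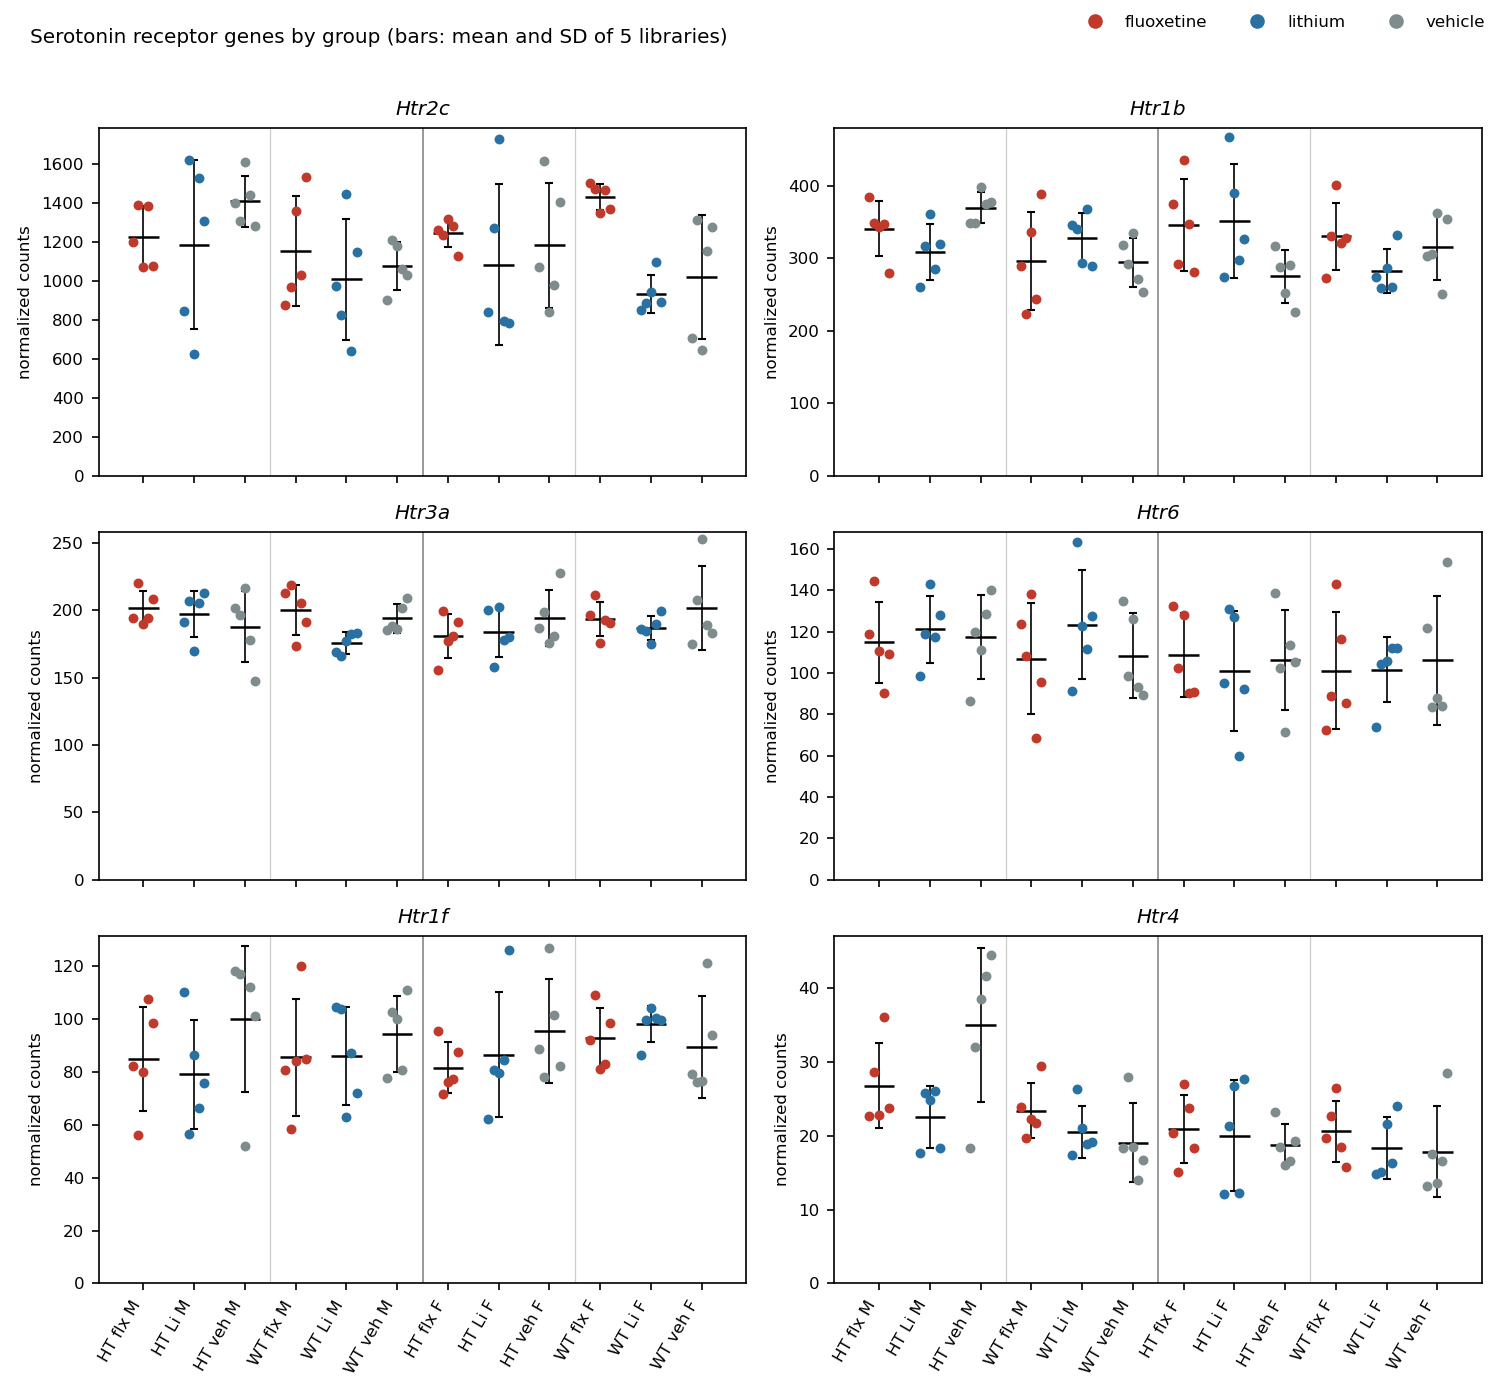
Normalized counts of the 6 remaining receptor genes (Htr1b, Htr1f, Htr2c, Htr3a, Htr4 and Htr6) in the 12 groups, one point a library (n = 5) with the group mean and SD. Htr2c is widely spread within most groups (624.7 to 1732 over all), and Htr4 is highest in HT vehicle males (mean 35.0).

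Htr1b, Htr1f, Htr3a, Htr4 and Htr6 passed in none of these comparisons by limma fitted to all 60 libraries without covariates. Htr3a, the channel subunit that marks a class of cortical interneurons, had group means within 1.15 times of each other, and in WT males it stood at 166 to 183 normalized counts with lithium against 185 to 209 with vehicle, a gap without overlap that did not pass (-0.14). With lithium, 4 of 40 tests of members and arms had no overlap: this one and those of Htr1a, Htr5a and Htr7 above. Each had a two-sided exact permutation p of 0.0079, and 0.079 after adjustment over the 40. The share of all genes without overlap was not computed. Htr6, a Gs-coupled receptor of primary cilia, ranged from 59.7 to 163 normalized counts over the libraries. Htr1f, a Gi/o-coupled receptor, ranged from 52.0 to 127.

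The genes that make, carry and answer to serotonin were taken as lists. Of 12 genes of synthesis, transport and breakdown 10 were tested, and limma called none of them with fluoxetine, 4 reaching an unadjusted p under 0.05, as did 28.4% of all genes. With lithium 3 rose and 4 fell, with a median of -0.09 against -0.00 over all genes. Ddc, the decarboxylase that makes serotonin and dopamine, fell by 0.50 ± 0.08 on the log2 scale (adjusted p = 3.8e-06), Slc22a3, a low-affinity monoamine transporter, fell by 0.43 (adjusted p = 7.4e-05) and Maoa, which breaks serotonin down, fell by 0.16 (adjusted p = 0.0011). Slc29a4, another such transporter, rose by 0.29 (adjusted p = 4.4e-04). Of the other receptor subtypes listed, Htr1d and Htr5b were tested, and Htr5b rose with lithium by 0.57 ± 0.12 (adjusted p = 2.1e-04).

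Among partners of the Gi/o-coupled receptors, 2 of 18 rose with fluoxetine, Gnao1 by 0.10 (limma adjusted p = 0.035) and Rgs7 by 0.08 (adjusted p = 0.041), and none fell. With lithium 5 of 18 fell and none rose, with Kcnj3, a GIRK channel subunit, down by 0.18 (adjusted p = 1.6e-04), Rgs14 by 0.22 (adjusted p = 0.0022) and Gnao1 by 0.11 (adjusted p = 0.010). Of 14 tested partners of the Gq/11 pathway, through which Htr2a and Htr2c act, Plcb1 rose with fluoxetine by 0.10 (adjusted p = 0.018), Gna11 fell by 0.08 (adjusted p = 0.046), and the list's median was 0.04. Limma called none of those 14 with lithium. Of 23 genes of the Gs and cyclic AMP pathway 1 rose with fluoxetine, Prkar2a by 0.08 (adjusted p = 0.042), while with lithium 2 rose and 3 fell. Pde4a rose by 0.15 (adjusted p = 2.1e-05) and Prkar2a by 0.11 (adjusted p = 0.0032), with Pde4b down by 0.11 (adjusted p = 0.0015) and Pde1b by 0.21 (adjusted p = 0.0032). Of 18 adaptor, trafficking and editing genes, 3 fell with fluoxetine: Grk6, a receptor kinase, by 0.09 (adjusted p = 0.010), and the RNA editing enzymes Adar by 0.07 (adjusted p = 0.020) and Adarb1 by 0.09 (adjusted p = 0.034). With lithium 1 of the 18 rose, Anxa2 by 0.24 (adjusted p = 0.0094), and 1 fell, Adarb2 by 0.25 (adjusted p = 0.040). Against these counts stand the 14.5% of all genes called with fluoxetine and the 22.6% called with lithium.

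Of 6 genes listed as markers of the raphe neurons that send serotonin to the cortex, 3 were tested, and Slc6a4, Fev and Gata3 were not. Those tested were scarce: Tph2 averaged 27.4 normalized counts, Slc18a2 26.0 and Slc22a3, the low-affinity monoamine transporter named above, 82.5. They summed to 86.5 to 194 in a library, a sum in which Slc22a3 has the highest mean. Tph2 fell with lithium by 0.36 (limma adjusted p = 0.039) and differed by 0.00 with fluoxetine.

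Each well measured receptor had genes whose deviations from the group means ran with its own over the 60 libraries. For Htr2c they were Lmo3 (r = 0.95), Tnfaip8l3 (0.90) and Klhl13 (0.88), the closest likeness among the 8. Those of Htr2a were St6gal2 (0.78), Flrt2 (0.77) and Megf9 (0.75), and those of Htr1a were Jph1 (0.75), Omg (0.74) and Sprn (0.74). Htr5a ran with Sv2b (0.80), Lgi1 (0.79) and Gpr158 (0.79), and Htr1b with Foxp1 (0.80) and Bmp3 (0.79). The gene most like Htr6 was Mboat7 (0.75), that most like Htr3a was Pnck (0.60) and that most like Htr7 was Slc35g2 (0.59). Among the receptors themselves Htr2a and Htr1a ran together (r = 0.66) and Htr2c and Htr7 ran opposite (r = -0.42). All these values are across libraries that share dissection and depth.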

How the data were processed

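Polyadenylated RNA was sequenced with a stranded TruSeq mRNA kit, per the labels' protocols. The deposited values are a normalized signal, per gene and library: per the submitters' processing notes the authors used Salmon 0.11.2, R 3.6.0 and DESeq2 1.19.11 on GRCm38, and annotation, strand setting and filters are not given in the sources used here. Each column was a whole read count divided by a size factor of the library (100% of values whole within 0.01), and the recovered reads came to 25.14 to 36.62 M a library.

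The 10 members, the gene lists and the 2 libraries left out together as an alternative (HT vehicle male replicate 1, with the highest Trip12 of all, and WT fluoxetine male replicate 2, with the lowest) were chosen with earlier results of these data known. All members are named whatever their values, with up to 4 called genes a pathway list and up to 3 like genes for each well measured member, of which 1 is not reported here. A gene was tested if 5 or more libraries reached 10 normalized counts (17804 genes, with 284 removed). Limma 3.58.1 (trend, R 4.3.3) was fitted on log2(normalized count + 1) to 12 group means over 60 libraries, which share 1 spread per gene (48 residual degrees of freedom), and p-values were adjusted by Benjamini-Hochberg over all genes tested, with 0.05 as the threshold. Fold changes on this scale understate those of low genes. Single arms were also compared by two-sided exact permutation tests (252 splits). Alternatives were other scalings, filters, pseudocounts and libraries, covariates, a replicate block, and edgeR 4.0.16 and DESeq2 1.42.0 on the recovered reads. The scripts were tested on simulated data. Symbols came from GENCODE M21 (18077 of 18088 identifiers). Promoters came from RefSeq (GRCm38.p6), with entries for 8 of the 10 members, Htr3a and Htr4 being without one here.

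Replicate numbers did not pair libraries: same-numbered libraries of different groups had a mean correlation of deviations of -0.0002 over 330 pairs, with 70 pairs over 0.1.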

Additional observations from a re-analysis of the deposited data

Results flagged for a closer look

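In 5 of 120 sets of 5 libraries (10 receptor genes in 12 groups), a library stood apart from the other 4 by the gap test, and chance gives about 1 in 20. Htr1a was 754.6 normalized counts in HT vehicle female replicate 2, with the next library at 576.1. Htr1f was 52.0 in HT vehicle male replicate 3, with the next at 100.9, and 86.3 in WT lithium female replicate 1, with the next at 99.4. Htr6 was also low in that last library, at 74.0 against 104.4 for the next. Htr4 was 28.5 in WT vehicle female replicate 5, with the next at 17.5. With all 60 libraries in the fit, limma called none of Htr1f, Htr4 and Htr6. Htr1a with lithium averaged over all arms, in HT mice, in males and in HT males was called without each library in turn. In females it was not called in 14 of 20 such fits, among them that without HT vehicle female replicate 2 (-0.16, adjusted p = 0.13).

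The lithium response of Htr1b went opposite ways in the sexes of HT mice. HT females stood at 274, 298, 327, 390 and 468 normalized counts with lithium, against 226, 253, 289, 291 and 317 with vehicle (0.33 on the log2 scale). HT males stood at 260, 286, 317, 320 and 362 with lithium, against 349, 349, 375, 378 and 399 with vehicle (-0.27). The difference between the sexes, males minus females, was -0.60 ± 0.18 (limma unadjusted p = 0.0018, adjusted p = 0.25), so it did not pass, and this comparison was added after seeing the data. The HT vehicle males are the group with high striatal markers, and the part of those cells in the Htr1b values was not tested.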

How the results depend on the processing

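Results for 11 comparisons were recomputed under 13 alternatives and with each library left out in turn, and no value called in them changed sign. Lithium minus vehicle in males, in females and in HT males was recomputed only with each library left out, a choice made after seeing the data. Htr1a with lithium was called in all 13 alternatives (-0.26 to -0.21) and without each of 40 libraries. Htr2a with fluoxetine was called in 12 of 13 alternatives (0.12 to 0.17, adjusted p of 6.4e-04 to 0.15) and without each of 40 libraries. With total reads as a covariate the number of receptor genes called was 0 instead of 1 for fluoxetine minus vehicle, 1 instead of 3 for lithium minus vehicle and 1 instead of 2 for fluoxetine minus lithium. With only the libraries compared in the fit, fluoxetine minus vehicle called 2, adding Htr7 (adjusted p = 0.043). In HT mice fluoxetine called 1 instead of 0, Htr2a, with a filter at 50 normalized counts (adjusted p = 0.046), with DESeq2 (0.040) and with 2 libraries, WT fluoxetine male replicate 2 and HT vehicle male replicate 1, left out together (0.020), and the same pair left out gave 1 instead of 0 between the sexes, Htr4 (0.012). The cause was not tested. A filter at 50 left Htr4 untested, DESeq2 gave no adjusted p for Htr4 between the sexes, and fitting only the libraries compared changes nothing for genotype and sex, which use all 60.

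Leaving out single libraries gave 1 to 1 receptor genes for fluoxetine minus vehicle, 0 to 0 in WT and 0 to 1 in HT mice. In HT, Htr2a was called without fluoxetine female replicate 2 or male replicate 5, or vehicle female replicate 2 or male replicate 1 or 2 (adjusted p of 0.022 to 0.044). The range was 2 to 3 for lithium minus vehicle, 0 to 0 in WT, and 1 to 2 in HT, where Htr7 was called without lithium female replicate 4 or 5 or male replicate 3 (0.024 to 0.050). It was 2 to 3 for fluoxetine minus lithium, with Htr2a added without 1 of 12 libraries, and 1 to 1 for HT minus WT. Between the sexes it was 0 to 1, Htr4 being called without HT fluoxetine female replicate 3, HT lithium male replicate 1, HT vehicle male replicate 1, WT fluoxetine male replicate 4, WT lithium female replicate 5 or WT vehicle female replicate 5 (0.011 to 0.049). It was 0 to 0 for both fluoxetine interactions. For lithium it was 1 to 2 in males (Htr7 was lost without HT lithium male replicate 5, HT vehicle male replicate 2 or WT vehicle male replicate 2, adjusted p of 0.057 to 0.062), 0 to 1 in females (Htr1a was lost without HT lithium replicate 1, 2 or 4, HT vehicle 1, 2 or 5, WT lithium 1, 2, 3 or 4, or WT vehicle 1, 2, 3 or 5) and 1 to 2 in HT males, where Htr4 was called without vehicle replicate 1 (adjusted p = 0.016) and Htr1f without vehicle replicate 3 (adjusted p = 0.046).

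With the replicate number as a block, the counts were 1 for fluoxetine minus vehicle, 3 for lithium minus vehicle, 2 for fluoxetine minus lithium and 1 for HT minus WT, the same as without it, and Htr2a with fluoxetine had an adjusted p of 0.0067. The numbers did not pair the libraries.

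Counts over all genes moved more. For fluoxetine minus vehicle limma called 2581, against 491 with total reads as a covariate and 4269 without the pair of libraries; in HT these were 1824, 778 and 3094, and in WT 37, 1 and 671, with 84 by DESeq2 and 12 with only the libraries compared. For lithium minus vehicle total reads as a covariate gave 2466 instead of 4021, and 456 instead of 814 in WT, while in HT 2595 became 1358 with marker scores and 1700 with only the libraries compared. HT minus WT gave 361 instead of 900 with marker scores. Male minus female gave 211, against 40 with marker scores, 605 with total reads, 661 by DESeq2 and 1038 without the pair. With single libraries left out the ranges were 2157 to 3643 for fluoxetine minus vehicle, 1308 to 2687 in HT, 14 to 469 in WT, and 75 to 1492 between the sexes. Depth limits Htr4 and Htr1f most.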
